A study of Mus musculus with 12 samples.

Results

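The 4 untreated libraries of the series describe how the genome of inv(16) leukaemia cells was methylated in mice that received no drug. They are 4 of 12 libraries, and were chosen by their label alone, with no measured value used. The cells are CMM cells, GFP-positive mouse cells that model acute myeloid leukaemia with inv(16), given by vein to C57BL/6 mice. The mice received PBS, the carrier fluid, in 3 intravenous doses on alternate days, starting when leukaemia cells made up about 1% of the blood. GFP-positive cells were sorted from the spleen 1 day after the last dose, without regard to the myeloid surface protein CD11b. The other 8 libraries, from mice given the oligonucleotide CpG-STAT3dODN, were not used. The labels do not say whether the 4 libraries came from separate animals, so the spread between them may be partly technical. They name 1 leukaemia line, and what was seen in it may not hold for others.

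DNA methylation is the addition of a methyl group to cytosine, in mammals mostly where a guanine follows (a CpG). Most CpGs of a mammalian genome are methylated, while CpG-rich stretches at gene starts, the CpG islands, are mostly free of it. Germline genes are known to carry methylation at their promoters in body cells, imprinted genes carry it on the chromosome of one parent, and islands of developmental genes often gain it in cancer. A promoter free of methylation can be silent as well as active, so the levels below are not levels of expression. The fusion of CBFB with MYH11 made by inv(16) in human leukaemia cannot be seen in methylation calls.

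The promoters of 6 genes show the kinds of state that were found. Each line gives the 250 bases before a gene start, from RefSeq on GRCm38.p6 (mm10), 5′ to 3′ on the gene's strand, with each CpG in capitals.
Cebpa, chr7:35119043-35119292, + strand: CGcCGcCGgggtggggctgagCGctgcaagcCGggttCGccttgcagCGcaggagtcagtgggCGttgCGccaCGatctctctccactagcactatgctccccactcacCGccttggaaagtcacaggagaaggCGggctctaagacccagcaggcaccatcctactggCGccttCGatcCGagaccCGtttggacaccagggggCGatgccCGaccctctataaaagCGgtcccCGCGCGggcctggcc
Cdkn2b, chr4:89311033-89311282, - strand: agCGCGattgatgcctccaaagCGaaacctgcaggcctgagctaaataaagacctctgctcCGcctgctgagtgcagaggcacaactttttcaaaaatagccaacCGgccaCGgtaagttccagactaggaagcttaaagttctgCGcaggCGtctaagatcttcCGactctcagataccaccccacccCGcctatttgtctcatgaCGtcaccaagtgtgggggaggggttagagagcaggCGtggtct
Ddx4, chr13:112652311-112652560, - strand: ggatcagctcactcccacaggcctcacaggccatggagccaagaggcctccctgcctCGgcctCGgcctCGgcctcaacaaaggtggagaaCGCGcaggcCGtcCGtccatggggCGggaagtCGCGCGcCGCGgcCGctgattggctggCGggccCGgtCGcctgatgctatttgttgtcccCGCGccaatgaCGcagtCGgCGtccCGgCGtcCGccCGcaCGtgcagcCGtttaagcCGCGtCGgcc
Slc25a31, chr3:40708621-40708870, + strand: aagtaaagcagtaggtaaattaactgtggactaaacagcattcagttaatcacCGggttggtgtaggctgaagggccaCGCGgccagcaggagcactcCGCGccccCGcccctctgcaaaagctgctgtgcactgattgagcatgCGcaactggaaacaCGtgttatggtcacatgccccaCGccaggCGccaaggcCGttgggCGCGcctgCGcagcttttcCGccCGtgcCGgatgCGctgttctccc
Igf2r, chr17:12769707-12769956, - strand: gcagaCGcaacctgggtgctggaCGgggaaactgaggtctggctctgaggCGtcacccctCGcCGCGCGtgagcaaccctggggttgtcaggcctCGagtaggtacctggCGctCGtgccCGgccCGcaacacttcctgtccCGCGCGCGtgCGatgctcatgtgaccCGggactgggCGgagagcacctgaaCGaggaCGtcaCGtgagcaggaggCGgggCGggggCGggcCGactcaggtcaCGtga
Irx3, chr8:91801655-91801904, - strand: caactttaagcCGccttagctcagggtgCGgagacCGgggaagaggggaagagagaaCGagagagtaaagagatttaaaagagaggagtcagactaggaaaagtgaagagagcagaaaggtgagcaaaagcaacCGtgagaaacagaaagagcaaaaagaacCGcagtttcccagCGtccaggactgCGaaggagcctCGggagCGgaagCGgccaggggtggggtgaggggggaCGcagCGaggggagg
The first 2 were nearly free of methylation. Of the 22 CpGs in the Cebpa sequence, 8 had enough calls, and their levels over the 4 libraries ran from 0% to 3.65% (median 0.781%). In the Cdkn2b sequence 7 of 12 CpGs were measured, from 0% to 2.08%. The next 2, of genes that work in germ cells, were filled with methylation. Ddx4 holds 31 CpGs and Slc25a31 18 in the bases shown, against 22 in Cebpa and 12 in Cdkn2b. In Ddx4, 29 of 31 CpGs were measured, from 84.1% to 98.9% (median 97.0%). In Slc25a31, 16 of 18 were measured, from 62.4% to 99.7% (median 96.9%). The imprinted gene Igf2r had 15 of 27 CpGs measured, all between 43.1% and 64.2% (median 49.2%). The developmental gene Irx3 had 5 of 13 measured, from 17.1% to 44.7% (median 30.4%). CpG-rich sequence thus appeared in all 3 states. Levels of 0% are the share of methylated calls, and counting error alone allows up to 5.36% at a CpG of Cebpa listed at 0 and 4.92% at one of Cdkn2b (3 calls of those made over the 4 libraries).

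The libraries held 130087192 to 144121254 methylation calls, and 1255264 autosomal CpGs were covered by 10 or more calls in every library, the median being 76. PBS 2 listed the fewest CpGs, 2832050 against 3150155 to 3378641 in the others. PBS 1 and PBS 2 stood at opposite ends of many results below. The Y chromosome also placed them so: calls on 8 single-copy Y genes numbered 720 in PBS 1, 2304 in PBS 2, 1043 in PBS 3 and 1503 in PBS 4, or 5.33, 18.1, 7.95 and 10.7 per 1000000 autosomal calls. All calls on Y, repeated sequence included, spread less and in another order, at 619, 779, 738 and 689 per 1000000. Calls on X were 25.7, 22.1, 25.6 and 23.8 per 1000 autosomal calls. The part of whatever sets these counts in the results was not tested. The cells' identity could only be looked at through methylation. Of the 6 blood cell markers, the start of Coro1a was at 1.05% ± 0.305 (SD, n = 4), and at ends of unknown strand Itgb2 was at 7.82% ± 0.915 and Spi1 at 82.2% ± 0.893. Ptprc, Cd48 and Laptm5 were not measured. Of the markers of endothelium and stroma, the start of Pdgfra was at 2.77% ± 0.396, and at ends of unknown strand Pecam1 was at 7.39% ± 3.18 and the collagen gene Col1a1 at 23.5% ± 3.74. The levels did not separate blood from stromal markers, with or without Spi1. Itgb2 and Pecam1 rested on 4 and 3 CpGs, and an end of unknown strand may be the stop of its gene.

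The genome of these cells was split into a methylated CpG-poor part and an unmethylated CpG-rich part. Averaged over the autosomal CpGs, methylation was 32.8% in PBS 1, 33.8% in PBS 2, 33.5% in PBS 3 and 33.3% in PBS 4, a mean of 33.4% ± 0.414. Reduced representation sequencing reads restriction fragments rich in CpGs, so this is the mean of the sampled CpGs and not of the genome. Of the CpGs, 53.5% were under 20%, 26.4% between 20% and 80%, and 20.1% at 80% or over. CpGs under 5% made up 44.3% of all. Chromosomes ranged from 27.1% on chromosome 11 to 38.6% on chromosome 12. The span was narrower among CpGs with under 10 listed CpGs within 250 bp on each side. There it was 54.2% on chromosome 11 to 60.7% on chromosome 12.

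CpG density, counted as the listed CpGs within 250 bp on each side, marked the split. Only CpGs listed in any of the 4 libraries were counted, so the density is a lower bound. A CpG called sparse or CpG-poor by this count may have unlisted CpGs near it. CpGs with 0 to 4 neighbours were methylated at 56.2% ± 2.08 and those with 5 to 9 neighbours at 59.5% ± 1.64. The level was 45.4% ± 0.516 with 10 to 24 neighbours, 9.88% ± 0.554 with 25 to 39, and 7.66% ± 0.781 with 40 or more. The fall lay between the third and the fourth of these sets, and every library showed it. Even the CpG-poor part was not full: of the CpGs with 0 to 4 neighbours only 30.2% were at 80% or over, and 53.9% were intermediate, between 20% and 80%.

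Distance from genes told the same story in space. Within 1000 bp of a gene start CpGs were at 6.70% ± 0.457, against 45.0% ± 1.14 around gene stops and 52.3% ± 0.977 in the rest of genes. Outside genes the level climbed with the distance to the nearest gene. It was 14.5% ± 0.124 under 1 kb away, 38.8% ± 1.01 at 1 to 5 kb, 50.6% ± 1.36 at 5 to 20 kb, 56.3% ± 1.21 at 20 to 100 kb and 68.9% ± 0.746 beyond 100 kb. Dense CpGs were higher away from starts: with 25 or more neighbours, CpGs were at 5.24% ± 0.558 at gene starts, 20.4% ± 1.04 elsewhere in genes and 24.6% ± 1.25 between genes. Sparse CpGs, with under 10 neighbours, were at 30.4% ± 1.2, 61.7% ± 1.78 and 57.2% ± 1.85 in the same places. Position and density were thus each tied to the level when the other was held to 1 class.

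**Figure D1:**
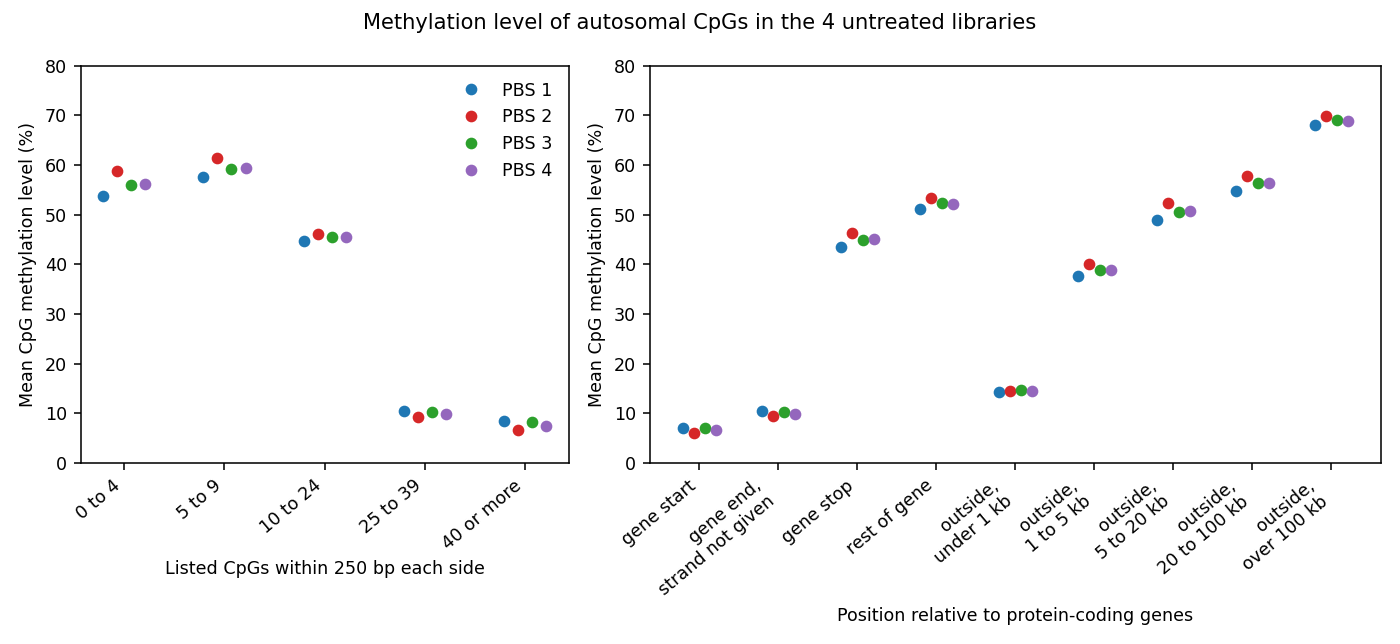
Mean methylation level (%, vertical axis) of autosomal CpGs by the number of listed CpGs within 250 bp on each side (left) and by position relative to protein-coding genes (right); each point is 1 of the 4 untreated libraries. CpGs of 40 or more neighbours lay near 7.66% and those over 100 kb from genes near 68.9%, and PBS 2 was the highest library in sparse and the lowest in dense sequence.

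Gene starts were then described one by one. Each window held the CpGs within 1000 bp of an annotated start, and its level was the mean of its CpGs in a library. A window under 20% on average over the 4 libraries is called unmethylated, one from 20% up to 80% intermediate, and one at 80% or over methylated. Of 11094 genes with at least 3 measured CpGs at a start, 9408 (84.8%) were unmethylated, 1525 (13.7%) intermediate and 161 (1.45%) methylated. The median level was 0.844%, and 8066 windows were under 5%. The median window held 37 CpGs and 3405 calls per library. For 2888 further genes the strand was not given, and the gene end with more CpGs stood in for the start: 2263 (78.4%) were unmethylated, 559 (19.4%) intermediate and 66 (2.29%) methylated. Where the strand was known, the end with more CpGs was the start side in 90.6% of 10967 genes, so a value at such an end may belong to the stop of the gene.

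The CpG content of the promoter sequence went with the state. With 20 or more CpGs in the 300 bases around the start (250 before, the rest after), 94.0% of 6259 windows were unmethylated and 0.383% methylated. With 10 to 19 CpGs, 86.1% of 3207 were unmethylated, with 5 to 9 CpGs 54.3% of 1116, and with 0 to 4 CpGs 30.7% of 512. Around starts with 20 or more CpGs, the level was 3.98% in the 250 bp before the start and rose on each side, to 27.6% between 2250 and 2500 bp before it and 45.4% between 4750 and 5000 bp after it. Starts with 0 to 4 CpGs had no trough at the start, with 34.4% over 80 CpGs in the 250 bp before it. Lower means stood farther off. They were 10.7% over 173 CpGs between 1500 and 1750 bp before it and 19.5% over 364 CpGs between 1250 and 1500 bp after it. These means pool the few CpGs measured near 512 starts, so a few stretches can set them.

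The extremes crossed this relation. Among windows with 40 or more CpGs, 93.3% were unmethylated, and the 10 highest were 4933428G20Rik (97.3%), Hsf5 (95.7%), Cyp26c1 (92.9%), Slc25a31 (91.4%), Sycp2 (91.0%), Oxct2a (85.9%), Rbmxl2 (85.8%), Meioc (85.3%), Gm3973 (82.9%) and Dmrtb1 (81.8%). Apart from Cyp26c1, a gene of retinoic acid breakdown, and the predicted or uncharacterised genes, these are known from the testis or meiosis. Among windows with 3 to 10 CpGs, the 10 lowest were all at 0.217% or less, and Nudt13 showed no methylated call among the 228 calls of the 4 libraries, which allows up to 1.32%. Ifit2, an interferon-induced gene, Jak3, a cytokine receptor kinase gene, and the histone gene H3c4 were in this set.

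**Figure D2:**
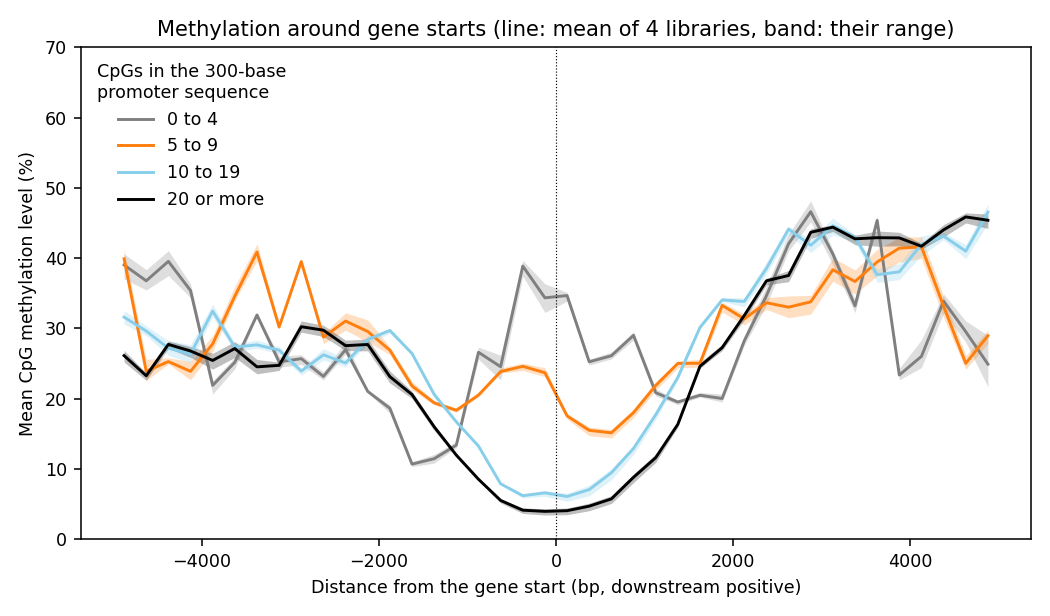
Mean CpG methylation level (%, vertical axis) in steps of 250 bp from 5000 bp before to 5000 bp after the gene start (horizontal axis), for starts grouped by the CpGs in their 300-base promoter sequence; lines are means of the 4 libraries and bands their range. The starts with 20 or more CpGs form a trough down to 3.98% at the start. Those with 0 to 4 CpGs are at 34.4% there (80 CpGs) and at 10.7% farther upstream (173 CpGs).

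The genes of blood stem and progenitor cells were mostly unmethylated at their starts, as gene starts were in general. Of 34 genes on that list, 23 had a measured start, 22 of them unmethylated (95.7%, against 84.8% of all gene starts) and 19 under 5% (82.6% against 72.7%). Their median of 0.905% lay beside 0.844% for all. The 11 measured housekeeping starts, for comparison, were all unmethylated, with a median of 0.502% and Tubb5, a tubulin gene, highest at 0.864%. Runx1, the DNA-binding partner in core binding factor, was at 0.845%, 0.746%, 0.547% and 0.389% in PBS 1 to 4. Cbfb, the partner gene cut by the inversion, was at 0.598%, 0.862%, 0.822% and 0.821% over 101 CpGs. Both were near zero in every library. The measured end of Myh11, a smooth muscle myosin gene, was at 6.15% ± 0.781. Its human counterpart is the other gene of the inversion, but in the mouse Cbfb lies on chromosome 8 and Myh11 on chromosome 16. Kit, the stem cell factor receptor, was at 0.535% ± 0.0829, and Gata2, a stem cell transcription factor, at 3.68% ± 0.709. Lyl1, also a transcription factor of early blood cells, was lowest with 0.387% ± 0.171. Only Prom1, the surface antigen CD133, was intermediate, at 41.4%, 28.6%, 39.8% and 31.5% over 48 CpGs, with PBS 2 lowest. Of the list's 6 genes measured at an end of unknown strand, 5 were unmethylated and Cd93 was at 23.8%.

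Genes of granulocytes and monocytes were less uniform. Only 14 of 41 were measured at all, 8 at a start. Of these 8, 5 were unmethylated (62.5% against 84.8% of all gene starts) and 3 intermediate, with a median of 8.31% against 0.844%. The myeloid transcription factors were low. Cebpa, which commits progenitors to the granulocyte path, was at 3.89%, 3.08%, 3.02% and 2.94% over 148 CpGs, and Cebpb was at 1.05% ± 0.0612 over 169. Irf8, which drives monocyte and dendritic cell fate, was at 7.70%, 6.26%, 8.85% and 8.26% over 57 CpGs. Its methylation lay in the flanks: the CpGs within 250 bp of the start were at 3.55% and the others at 12.8%. Of the intermediate members, Elane, neutrophil elastase, was at 44.4% ± 2.49, the granule protein gene Ngp at 40.04% ± 6.49, and Csf2ra, the GM-CSF receptor chain, at 41.7% ± 2.40. Elane and Ngp rested on 3 CpGs each. In Csf2ra the 13 CpGs near the start were at 58.2% and the flanks at 6.09%, and with windows of 2000 bp on each side its level was 9.03%. At gene ends of unknown strand Spi1, the gene of PU.1, was at 82.6%, 82.9%, 82.3% and 80.9% over 14 CpGs in positions 91114759 to 91116759 of chromosome 2, the end with the higher coordinate. Csf1r, the M-CSF receptor gene, was at 71.5% ± 5.17 over 3 CpGs, also at the end with the higher coordinate. Neither value can be read as the state of a promoter. Cebpe, needed for late granulocytes, was at 52.5% over 18 CpGs at a gene end of unknown strand. The starts of Mpo, Itgam (CD11b) and Itgax were not measured.

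Antigen presentation and dendritic cell genes with a measured start were all unmethylated, 8 of 8, with a median of 0.839%, close to the 0.844% of all gene starts, of which 84.8% were unmethylated. The peptide transporter gene Tap1 was at 0.565% and Batf3, a factor of cross-presenting dendritic cells, at 4.23%, and Irf4 was highest at 6.68% ± 1.66 (1.14% with at least 20 calls per CpG). Bst2, an antiviral surface gene, was lowest at 0.489% ± 0.123. Tapbp, of peptide loading, had the widest range, with 3.14%, 6.78%, 4.46% and 3.97%. Those measured only at an end of unknown strand were more mixed, with 2 of 5 unmethylated and 3 intermediate. Among them Ciita, the master regulator of MHC class II genes, was at 77.0% ± 1.24 at the end with the higher coordinate, which was covered by 8 CpGs.

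Genes of other blood lineages were mixed. Of 12 measured starts of T and NK cell genes, 6 were unmethylated and 6 intermediate, with a median of 20.3%, while 84.8% of all gene starts were unmethylated. The unmethylated ones were the transcription factors Gata3 (1.51% ± 0.261), Lef1 (1.97% ± 0.479), Eomes (2.44% ± 0.278), Runx3 (3.20% ± 0.201), Tbx21 (6.78% ± 0.485) and Tcf7 (6.79% ± 0.644). One T cell transcription factor stood outside them: Bcl11b, which commits cells to the T lineage, was at 67.5%, 45.3%, 64.0% and 61.7% over 69 CpGs. There 68 of the 69 CpGs were between 20% and 80%, and PBS 2 lay below the other libraries. The T cell surface gene Cd5 was at 77.6% ± 1.72 over 4 CpGs, and Zap70, a kinase of the T cell receptor, at 39.6% over 9 CpGs. With at least 10 CpGs asked of a window, the list's median was 3.20%.

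Of 7 B cell starts 5 were unmethylated (71.4% against 84.8% of all), among them Ebf1, a B lineage factor, at 1.03%. Cd37, a surface gene, was lowest at 0.644% ± 0.285 over 4 CpGs, but at 42.3% in windows of 2000 bp on each side. Spib, a transcription factor of B and plasmacytoid dendritic cells, was intermediate at 56.0% ± 3.18, or 35.7% weighted by calls. Vpreb1, part of the surrogate light chain, was methylated at 83.9% ± 1.88, but over 3 CpGs, and at 7.03% in windows of 2000 bp on each side. Pax5 and Cd3e were not measured. Of 12 erythroid and megakaryocyte starts 11 were unmethylated (91.7% against 84.8% of all), but 58.3% were under 5% against 72.7% of all, and the median of 3.71% lay above the 0.844% of all. Tfrc, the transferrin receptor gene, was lowest at 0.536% ± 0.0986. Klf1, the erythroid master regulator, was at 0.741% ± 0.156 and Epor, the erythropoietin receptor gene, at 2.96% ± 1.13. Rhd, a red cell surface protein gene, varied most on this list, at 6.04%, 11.5%, 15.3% and 10.5%. Trim10 was the intermediate member at 22.2% ± 3.29.

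**Figure D3:**
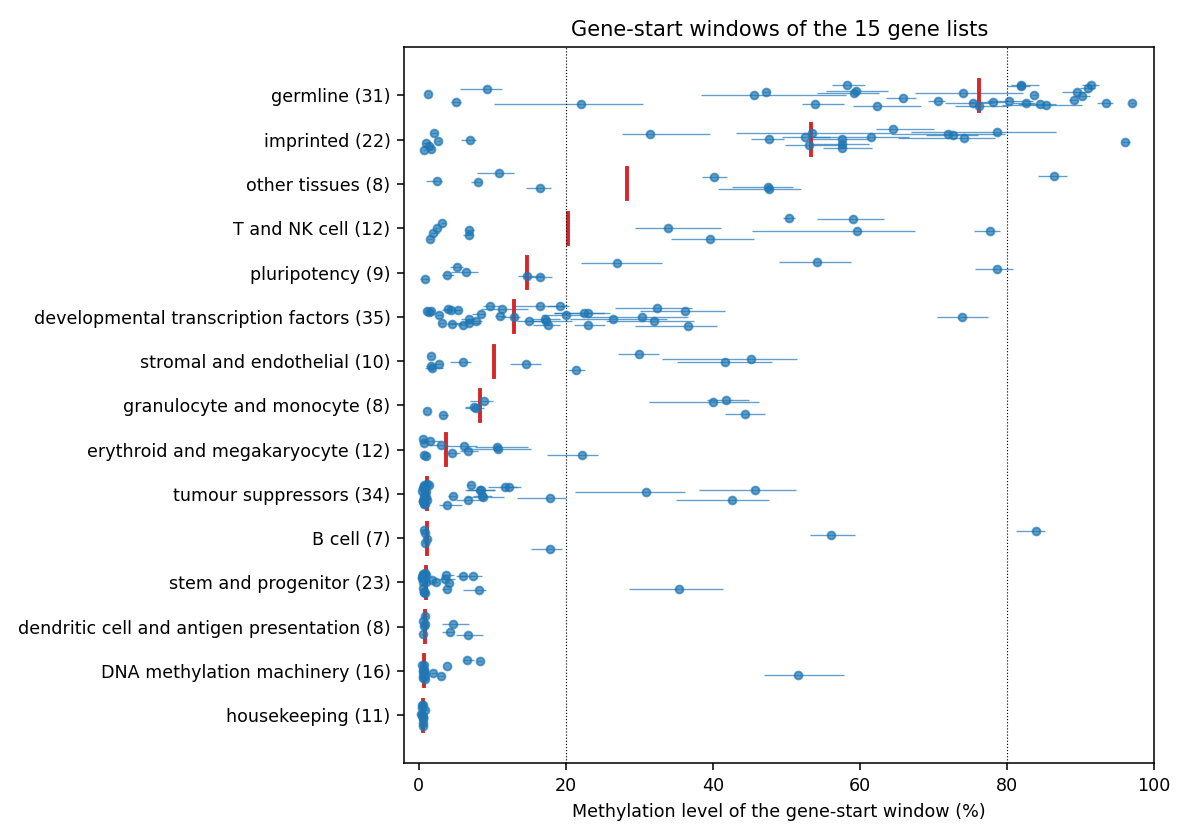
Methylation level (%, horizontal axis) of each measured gene-start window of the 15 gene lists, with the number of windows in brackets; points are means of the 4 libraries, bars their range and the upright line the list's median, and dotted lines mark 20% and 80%. Germline genes reach from 1.26% to 96.9%, imprinted genes have a median of 53.3%, and housekeeping genes reach at most 0.864%.

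Starts of developmental transcription factors, which set up tissues of the embryo, were low but rarely empty. Of 35 measured, 25 were unmethylated (71.4% against 84.8% of all gene starts) and 10 intermediate. Only 8 were under 5%, which is 22.9% against 72.7% of all. The median of the 35 was 12.9%, against 0.844% for all. Foxa1, a factor of gut and lung, was lowest at 1.14% ± 0.0455 over 73 CpGs, and the kidney factor gene Pax2 was at 1.35% over 75 CpGs. Sox2, a stem and neural factor, was at 16.5% as a mixture: the CpGs within 250 bp of its start were at 2.21% and the flanks at 21.1%. Irx3 was at 40.5%, 29.4%, 40.2% and 36.5% over 112 CpGs, the start shown above by sequence. Foxd3, a neural crest factor, was at 41.7%, 30.1%, 39.4% and 33.7% over 101 CpGs, and Nkx6-1, a pancreas and neural tube factor, at 37.4%, 25.5%, 33.7% and 31.0% over 117. In all 3 genes PBS 2 was the lowest library and PBS 1 the highest. Gsc (32.4%), Isl1 (30.4%), Sox1 (26.4%), Otx2 (23.0%), Hand2 (23.0%) and Twist1 (22.4%) were intermediate as well. Twist1 lay under 20% when 20 calls per CpG were required (18.3%) or CpGs were weighted by calls (17.1%). The highest, Hnf4a of liver, was at 73.8% ± 3.24 but over 8 CpGs. PBS 2 was the lowest library at 26 of the 35 starts, against 4193 of all 11094 gene starts.

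The Hox genes, which pattern the body axis and are also used by blood progenitors, spread more widely. Of 39 Hox genes 21 had a measured start, 13 unmethylated and 8 intermediate, with a median of 9.61%. Of all gene starts 84.8% were unmethylated and 13.7% intermediate, with a median of 0.844%. Hoxd8 was at 1.19% ± 0.178 and Hoxa13 at 1.40% ± 0.0797. Hoxa9 was at 12.5% ± 3.40 over 3 CpGs, and Hoxa10 at 7.74% ± 1.12 over 64. Hoxa5 stood apart from the others with 72.1%, 74.7%, 81.3% and 78.1% over 68 CpGs, and the next, Hoxa6, was at 32.7% ± 2.04. PBS 1 was the lowest library at Hoxa5, unlike at most dense intermediate windows. Among other embryonic families, 13 of 13 Wnt starts were unmethylated (median 4.51%) and 21 of 23 Fox starts (3.64%), beside 84.8% of all gene starts. Both medians were lower than that of the Hox genes but above the 0.844% of all. Of 12 Sox starts 8 were unmethylated, with a higher median of 14.7%. Of 9 pluripotency starts 6 were unmethylated (66.7% against 84.8% of all). Pou5f1, the gene of Oct4, was at 33.1%, 30.5%, 22.0% and 22.1%, Tdgf1 at 54.1% ± 4.02, and Zfp42, known as Rex1, at 78.6% ± 2.25, each over 8 to 10 CpGs. Nanog was not measured.

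Germline genes were the most methylated list. Of 46 genes 31 had a measured start: 14 methylated, 14 intermediate and 3 unmethylated, with a median of 76.1%. Methylated windows made up 1.45% of all gene starts. Ddx4, a helicase of germ cells, was at 97.3%, 97.0%, 96.7% and 96.8% over 38 CpGs, a spread of 0.572 points. Sycp3, a protein of the meiotic chromosome axis, was at 81.8% ± 1.31, and its partners Sycp2 and Sycp1 at 91.0% ± 0.904 and 89.5% ± 1.66. Mael, which guards germ cells against transposons, was at 89.1% ± 0.461, and Meioc, needed in meiosis, at 90.2%, 79.2%, 83.6% and 88.0%. Over the 31 starts the median range of the 4 libraries was 4.09 points. PBS 2 was the highest library at 18 of them, against 2548 of all 11094 gene starts. Dmrtb1, a factor of the switch to meiosis, was at 81.8% ± 1.70. The 3 unmethylated members were Ddx25 (1.26% ± 0.0745), the RNA-binding protein gene Cpeb1 (5.02% ± 0.607) and the cohesin gene Stag3 (9.22% ± 2.61).

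Dazl, an RNA-binding protein gene of germ cells, showed why an intermediate mean needs its CpGs. Its window stood at 46.8%, 47.8%, 47.0% and 47.1%, which reads as intermediate, but the 22 CpGs within 250 bp of the start were at 97.1% and the other 56 at 27.5%. Only 1 of its 78 CpGs lay between 20% and 80%. In windows of 500 bp on each side it was at 92.9%. Tex14, needed for the bridges between germ cells, was the least settled member, at 10.2%, 30.5%, 21.6% and 26.0%, and 18 of its 29 CpGs were intermediate.

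The sequences of these promoters were searched for 2 motifs on both strands of the 300 bases around the start. CACGTG, an E-box, was in 14 of the 31 germline promoters (45.2%) and in 10.2% of all 11094. GCGGGA, part of E2F sites, was in 16 of 31 (51.6%) and in 37.6% of all, or 49.4% of those with 20 or more CpGs. Over the 161 methylated starts the shares were 11.8% for CACGTG and 21.1% for GCGGGA. The searches have no test, and a match is only a run of letters.

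Most tumour suppressor starts were unmethylated, at shares near those of all gene starts. Of 34 measured, 31 were unmethylated (91.2% against 84.8% of all) and 22 under 5% (64.7% against 72.7%), with a median of 1.08% against 0.844%. Of a further 14 measured at an end of unknown strand, 10 were unmethylated and 4 intermediate. Brca1, of DNA repair, was lowest with 0.422% ± 0.0750. Cdkn2a, which encodes 2 cell cycle inhibitors, was at 0.973%, 0.551%, 0.884% and 0.602% over 114 CpGs at the start with most CpGs, and at 2.94% at its other measured start. Cdkn2b, its neighbour, often methylated in human myeloid disease, was at 0.963%, 0.437%, 1.01% and 0.840% over 38 CpGs. Socs1, a brake on cytokine signals, was at 0.590% ± 0.113 and the methylcytosine oxidase gene Tet2, on the next list too, at 0.653%. Cdh1, the gene of E-cadherin, was at 3.52% ± 0.299 at an end of unknown strand.

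The exceptions were Id4, Mgmt and Dkk2. Id4, an inhibitor of helix-loop-helix factors, was at 49.3%, 38.1%, 51.2% and 44.0% over 126 CpGs, of which 122 were intermediate. Mgmt, a DNA repair gene, was at 42.6% ± 5.54 over 7 CpGs. Dkk2, a Wnt inhibitor, was at 30.9% ± 6.68 over 13 CpGs, and at 12.6% without the CpGs with the highest 1% of calls. Among other Wnt inhibitors Sfrp1 was at 62.0%, 49.4%, 64.3% and 58.8% over 84 CpGs at an end of unknown strand (the lower coordinate), 82 of them intermediate. Sfrp2 was at 17.8% with 33 of 79 CpGs intermediate, and Wif1 at 1.02%. Id4 and Sfrp1 were therefore the CpG-rich members with methylation spread over the whole window, and PBS 2 was lowest at both.

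The genes that write, read and remove methylation were themselves unmethylated at 15 of 16 starts (93.8% against 84.8% of all), with a median of 0.723%, near that of all. The methyltransferase genes Dnmt1, Dnmt3a and Dnmt3b were at 0.526%, 0.774% and 0.675%, and Stat3, the factor targeted in the other arms of the series, was at 0.688% ± 0.188. Tet1 was at 2.98% and Tet3 at 6.54%. The 1 intermediate start was that of Dnmt3l, a cofactor active in germ cells, at 51.5% ± 4.87 over 7 CpGs (18.2% in windows of 2000 bp on each side). The lowest was Tdg, a DNA glycosylase gene, at 0.464% ± 0.198. Tlr9 was not measured.

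Many imprinted genes were intermediate. Of 34 genes 22 had a measured start, with 7 unmethylated, 14 intermediate and 1 methylated, and a median of 53.3%. Over all gene starts 84.8% were unmethylated, 13.7% intermediate and 1.45% methylated, with a median of 0.844%. At the low end 6 of the 22 were under 5%. Igf2r, the receptor that clears the growth factor Igf2, was at 61.6%, 55.0%, 58.2% and 55.3% over 68 CpGs, and 67 of these were intermediate. Plagl1, a growth-regulating factor gene, was at 53.4%, 49.7%, 57.7% and 51.5%, with 41 of 42 CpGs intermediate. Peg12 was at 52.6%, with 69 of 80 CpGs intermediate, Zrsr1, a splicing factor gene, at 47.6%, and Snrpn, also of splicing, at 64.4% ± 3.72 with 18 of 20, in a window shared with Snurf. Peg3 and Usp29 share a window, which was at 57.5% ± 3.34. In contrast to Dazl, most CpGs of Igf2r, Plagl1, Peg12, Zrsr1 and Snrpn lay between 20% and 80%.

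Not all imprinted genes stood at the middle. Gnas, a signalling protein gene, was at 0.665% ± 0.107 at its start with most CpGs, while a start 45686 bp away was at 60.8%, 57.9%, 63.5% and 61.6% over 52 CpGs. Mest was at 53.5% ± 9.48, and at 84.7% at a start 4544 bp away. Dlk1 (72.0%), Nnat (72.6%), Magel2 (74.1%) and Nap1l5 (78.6%) lay higher. Mcts2 was methylated, at 95.9%, 96.6%, 95.8% and 95.6%, with 1 of 22 CpGs intermediate. Of the non-coding imprinted genes Airn was at 54.9%, Meg3 at 66.8% and Kcnq1ot1 at 10.6%, 28.3%, 42.5% and 41.8%. The Kcnq1ot1 window held 6 CpGs and 642 to 809 calls per library, and PBS 1 lay far below PBS 3 and PBS 4. H19 was not measured.

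**Figure D4:**
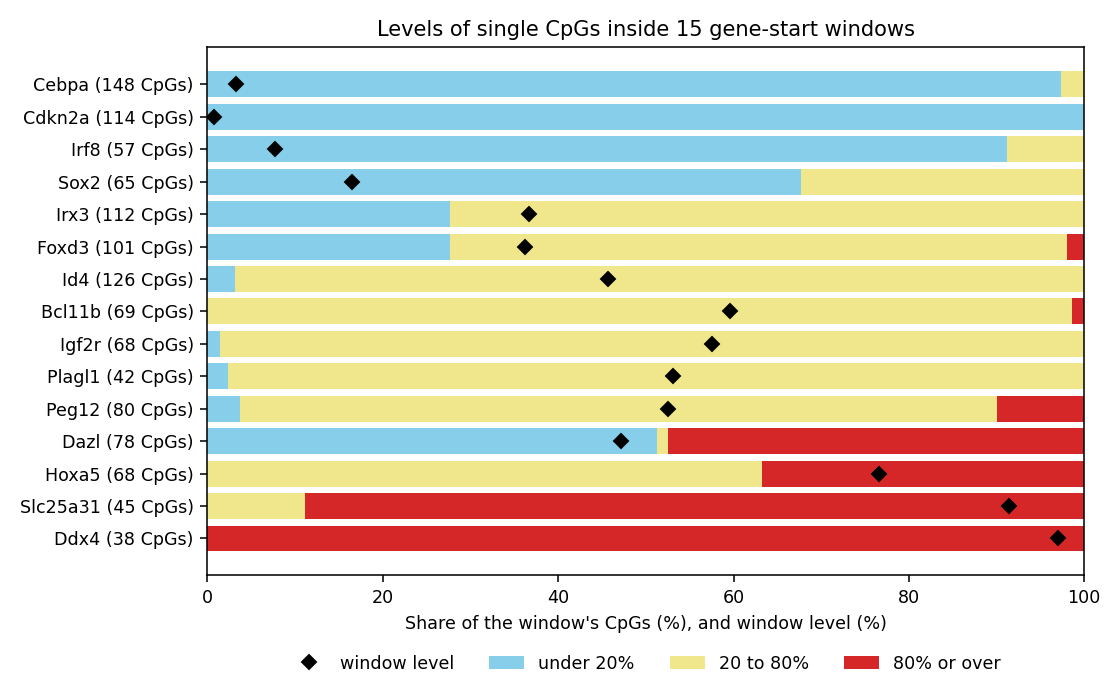
Share of the CpGs (%, bars) that were under 20%, between 20% and 80%, or at 80% or over in 15 gene-start windows, with the window's level (%, diamonds); levels are means of the 4 libraries. The intermediate windows of Igf2r and Id4 consist of intermediate CpGs, while the 78 CpGs of Dazl are nearly all high or low.

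An intermediate level in most CpGs was no mark of imprinting. At least 20 CpGs and a level from 40% up to 70% were found in 6 windows of the imprinted list and in 280 others. The median share of intermediate CpGs was 89.1% in the 6 and 90.2% in the 280. The SD of the levels over the CpGs of a window had a median of 17.0 points in the 6 and 16.9 points in the 280. The 2 sets differed in how the libraries agreed: the median range over the 4 libraries was 7.21 points in the imprinted windows and 15.9 points in the others. The others include Snurf, Commd1 and Dio3, which are imprinted or share bases with a listed window. Without these 3, a choice made after their values were seen, the medians over the remaining 277 were 90.2%, 16.9 points and 15.96 points. The members were listed by name and the others not chosen for any role, so this is a description with no test.

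Genes of other tissues were mixed. Of 10 stromal and endothelial starts 6 were unmethylated (60% against 84.8% of all), such as Kdr, a VEGF receptor gene, at 1.58% ± 0.137. Cxcl12, the niche chemokine gene, was intermediate at 47.9%, 33.1%, 51.4% and 48.2% over 58 CpGs, and Madcam1, an adhesion gene, at 41.6% ± 5.33. Eng was at 29.96% ± 2.71 and Robo4 at 21.3% ± 1.05. Of 8 starts of other tissues 4 were unmethylated (50% against 84.8% of all), 3 intermediate and 1 methylated. The methylated start was that of Gfap of astrocytes, at 86.4% ± 1.77 over 14 CpGs. Pvalb, a calcium-binding protein gene of neurons and muscle, was lowest at 2.40% ± 0.991, and Ckm of muscle varied most, from 40.7% to 51.9%. Keratin starts were intermediate in 17 of 18 (median 63.7%) and olfactory receptor starts in 24 of 26 (58.0%), in windows with a median of 9 and 4.5 CpGs. Of all gene starts 13.7% were intermediate, and 45.4% of those with 3 to 9 CpGs. Of 51 ribosomal protein starts 48 were unmethylated, with a median of 0.539%, where 84.8% of all gene starts were unmethylated with a median of 0.844%.

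The 4 libraries agreed at most positions. At 85.4% of CpGs all 4 fell in the same of the 3 classes, 94.3% for CpGs with 25 or more neighbours and 73.3% for those with under 10. The range over the 4 was under 10 points at 70.6% of CpGs and at 92.7% of gene-start windows. Across CpGs, which are not independent, the libraries correlated with Pearson r from 0.971 (PBS 1 with PBS 2) to 0.987 (PBS 3 with PBS 4). The variance between libraries in a window was compared with that from counting alone, where a value of 1 means equal. Its median was 1.57 over all windows, 1.36 in unmethylated, 1.97 in methylated and 7.92 in intermediate ones. Calls on 1 read are not independent, so values over 1 can arise within a library. Disagreement lay mainly in the intermediate class, where 51.3% of windows had a range under 10 points, against 99.5% of unmethylated and 88.2% of methylated windows.

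PBS 2 set much of the disagreement, in opposite directions by density. Among 328 intermediate windows with 40 or more CpGs, PBS 2 was the lowest library in 317 and PBS 1 the highest in 249. Among 633 intermediate windows with 3 to 9 CpGs, PBS 2 was the highest in 347. Without PBS 2, 97.4% of windows had a range under 10 points in place of 92.7%, and without PBS 1 95.3%. With 3 libraries in place of 4 a range over the same CpGs can only shrink. CpGs and windows were also chosen again by the calls of those 3, so the sets compared are not the same. Without PBS 3 or PBS 4 the share was 93.2% or 93.0%. The order of the libraries at CpGs with 40 or more neighbours was PBS 1 (8.35%), PBS 3 (8.16%), PBS 4 (7.51%) and PBS 2 (6.62%), and the calls on the 8 Y genes had the reverse order. At CpGs with 0 to 4 neighbours the order was PBS 1 (53.7%), PBS 3 (56.0%), PBS 4 (56.3%) and PBS 2 (58.8%), the order of the calls on those 8 genes, though not of all Y calls. With 4 libraries this was not tested.

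The widest spread among windows with 10 or more CpGs was at Rimbp2, a synaptic protein gene, with 79.2%, 45.1%, 66.3% and 56.3% over 13 CpGs. Nalcn, a sodium leak channel gene, had 69.6%, 36.1%, 53.8% and 59.7%, and Frmd3 60.2%, 28.8%, 56.0% and 49.3% over 32 CpGs. Pcdh20, a protocadherin gene, had 73.6%, 42.9%, 66.8% and 61.4%, and Rtl6, derived from a retrotransposon, 58.2%, 30.1%, 47.2% and 42.1%. Bhmt2 and Dmgdh, of betaine metabolism, share 1 window with 71.4%, 42.3%, 63.9% and 59.0%. In these windows PBS 2 was lowest and PBS 1 highest. Ccdc182 had 40.7%, 14.5%, 48.6% and 40.9%, with PBS 2 again lowest. Tnfrsf1b, a receptor gene for tumour necrosis factor, went another way with 60.3%, 43.8%, 34.0% and 30.7%, and was at 15.4% when 20 calls per CpG were required. Rxfp4, a relaxin receptor gene, had 7.75%, 36.0%, 23.7% and 12.6%, with PBS 1 lowest and PBS 2 highest. At the other extreme some highly methylated windows hardly moved. Hsf5, a heat shock factor gene of the testis, was at 95.9%, 95.6%, 95.7% and 95.7% over 71 CpGs. Over all 161 methylated windows the median range was 3.96 points and the widest 21.1 points.

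**Figure D5:**
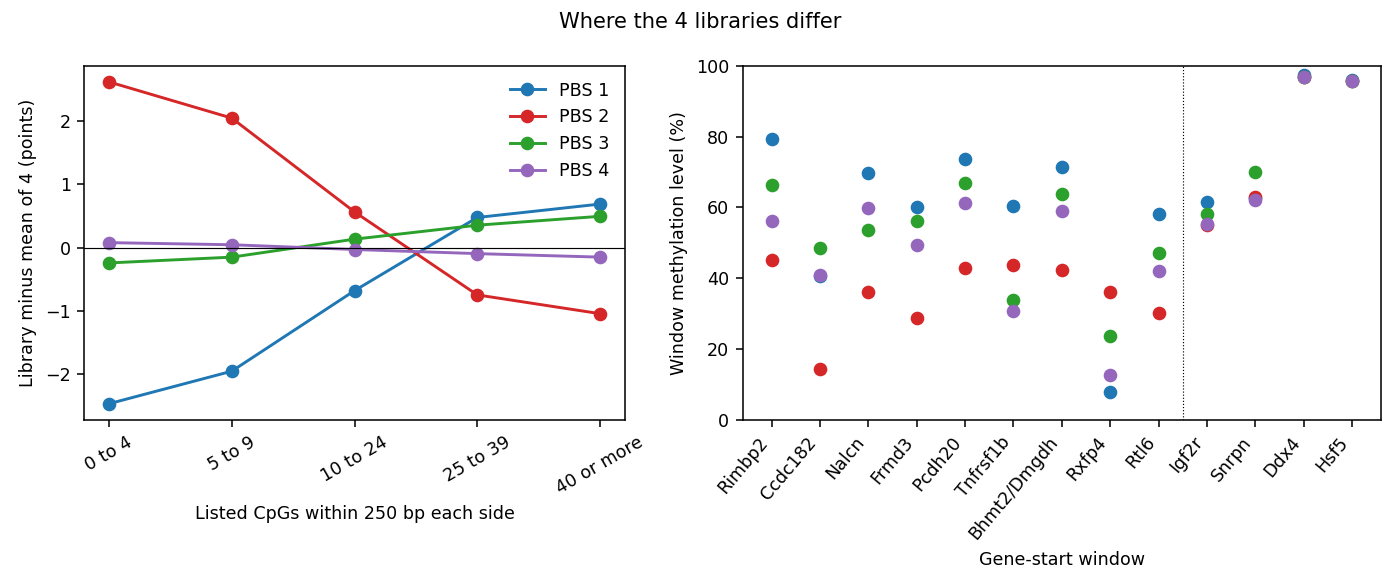
Left, each library's level minus the mean of the 4 (points, vertical axis) by the number of listed CpGs within 250 bp on each side. Right, window levels (%) in the 4 libraries at the windows of widest range (left of the dotted line) and at Igf2r, Snrpn, Ddx4 and Hsf5; PBS 2 crosses from the highest library in sparse to the lowest in dense sequence, and Ddx4 and Hsf5 differ by under 1 point.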

How the data were processed

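DNA of the sorted cells had been read by reduced representation bisulfite sequencing. Bisulfite turns unmethylated cytosine into uracil, so each read calls the CpGs it crosses as methylated or unmethylated. The deposited files hold counts, the number of methylated and unmethylated calls per cytosine and strand, one library per file and not normalised. The submitters' processing notes name the build mm10 and the tools Bismark, methylKit 1.20.0, Trim Galore 0.6.4 and cutadapt 2.7. How reads were aligned and duplicates handled, and the conversion rate, is not given in the sources used here. A low conversion rate raises every level, and copies of a molecule can be counted more than once.

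From these counts both strands of a CpG were summed, and autosomal CpGs with at least 10 calls in all 4 PBS libraries were kept (1255264 of 5524640 listed in any). A level is the methylated share of calls in percent. Levels of sets are unweighted means over CpGs, given per library and as mean ± SD (n = 4). With 1 group nothing was compared or tested. Strands and starts came from RefSeq (GRCm38.p6): 16456 of 20661 autosomal protein-coding genes matched a start, and for a gene with several the start with most measured CpGs was used. Exons and introns were not used here. The window step was tested on simulated data with known levels. Named were 36 fixed genes, the extremes and the rarest class of each list, and 3 sets of 10 windows chosen by level or range. Some named items are not reported here. Others are named as examples of a list and were chosen after their values were seen. The members and the 15 lists were chosen with earlier results of these data known. Python 3.11.15 with NumPy 2.4.6 and pandas 2.3.3 was used. Intervals given for a count of 0 cover counting error only.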

Additional observations from a re-analysis of the deposited data

Results flagged for a closer look

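In 138 sets of 4 library values, 14 held a library far from the other 3 by Dixon's criterion, and chance alone gives such a mark in about 1 of 20 sets. PBS 1 stood apart at Cbfb (0.598%), Cebpa (3.89%), Lef1 (2.68%) and Prdm1, a factor of germ and plasma cells (0.183% against 1.06% to 1.18%). PBS 3 stood apart at Snrpn (69.98%, with the others from 62.2% to 62.8%) and PBS 2 at Vpreb1 (81.1%). The remaining 8 belong to the sparse windows with the lowest levels, where the other libraries were at or near 0 and 1 or a few methylated calls made the difference. They were Opa1 (0.510% in PBS 1), Nop58 (0.521% in PBS 1), H3c4 (0.602% in PBS 1), Jak3 (0.546% in PBS 3), Urod (0.870% in PBS 3), Ifit2 (0.625% in PBS 4), Tmem258 (0.806% in PBS 2) and Ccdc61 (0.356% in PBS 2). On the Y chromosome, which is left out of the methylation levels above, 8 single-copy genes drew calls in every library. These ran from 720 in PBS 1 to 2304 in PBS 2. Their source was not tested.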

How the results depend on the processing

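Of 2191 values recomputed under 14 alternatives, 1943 moved by less than the spread between libraries (counts, by less than 1.5 times) and 248 moved more. The mean level was 34.1% with at least 5 calls per CpG, 32.8% with 20, and 35.1% weighted by calls. The share of gene-start windows with a range under 10 points was 92.0%, 93.2% and 94.97% with 5 calls, 20 calls and at least 10 CpGs per window. At least 10 CpGs per window left 892 intermediate and 67 methylated windows, and class bounds of 10% and 90% left 45 methylated. Leaving out each library in turn gave mean levels from 33.2% to 33.9% and that share from 93.0% to 97.4%. In these runs CpGs were chosen again by the calls of the remaining libraries. A shift can therefore come with other CpGs as well as with the library left out. Without PBS 2 the median of the 7 B cell starts went from 1.03% to 9.18% with a further start measured. Windows of 2000 bp on each side gave Cd37 42.3% in place of 0.644%, Runx1 7.75% in place of 0.632% and Dnmt3b 5.02% in place of 0.675%. Windows of 500 bp gave Irf8 4.6% and Tcf7 1.89%, and weighting by calls gave Tbx21 11.7%. Cpeb1 was at 8.22% without PBS 1 in place of 5.02%. On the CpGs used above, PBS 2, PBS 3 and PBS 4 were at 4.59%, 5.66% and 4.42% there, so the CpGs counted had changed. Of 116 named windows 7 changed class with windows of 2000 bp, and 3 of the 105 with a value did with 500 bp. Under any other alternative run on named windows at most 2 did, of the 107 with a value at 20 calls, 88 at 10 CpGs per window and 116 otherwise. Taking the most upstream measured start, chosen after the data were seen, left 9382 unmethylated, 1542 intermediate and 170 methylated windows. The cause of these shifts was not tested. No paired analysis was possible because 1 group was described and nothing was compared.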

Other observations

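Some CpG-rich starts outside the lists were methylated as fully as the germline genes. Of the 6259 windows with 20 or more CpGs in the promoter sequence, 24 were methylated. The uncharacterised gene 4933428G20Rik was highest with 97.8%, 97.1%, 96.9% and 97.2% over 96 CpGs, and several others are known from the testis or meiosis, such as Hsf5, Rbmxl2 (85.8% ± 5.54 over 149 CpGs), Hsf2bp (86.2%, 4 CpGs) and Henmt1 (80.2%). These starts were chosen after their values were seen. A further 5 of the 24, Gm3973, Zfp996, Gm40862, Gm9257 and Gm38699, lie on chromosome 12 at 81.0% to 82.9%. They belong to a region of predicted, possibly near-identical genes, where reads may be shared between copies, so their levels are uncertain. In each of these 5, PBS 2 was lowest and PBS 1 highest.

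Alternative starts of a gene often differed. Of 441 genes whose lowest and highest measured starts lay over 2000 bp apart, 178 differed by at least 20 points and 159 by under 5 points. In 37 genes 1 start was unmethylated and another methylated. Jade1, a chromatin factor gene, was at 0.555% over 106 CpGs and at 96.0% over 13 CpGs at a start 9146 bp away. Fut8, a fucosyltransferase gene, had 0.685% over 131 CpGs and 95.7% over 5. H2-DMa, of antigen loading, had 0.845% over 37 CpGs and 85.9% over 4, at starts 2686 bp apart. Trp73, of the p53 family, had 4.69% and 68.5% (5 CpGs). Which start was in use cannot be read from these data.

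The level of CpG-poor sequence also varied along chromosomes. In 1253 bins of 1 Mb with at least 100 CpGs of under 10 neighbours, it ran from 38.6% to 74.9% with a median of 58.3%. The lowest bin was 21000001 to 22000000 of chromosome 13 (37.4%, 39.8%, 38.5% and 38.9%), and the highest was 50000001 to 51000000 of chromosome 17 (74.2%, 75.7%, 75.1% and 74.6%). PBS 2 was the highest library in 1201 of the bins and PBS 1 the lowest in 1211, so the offset of these libraries was spread over the genome.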
